A study of Mus musculus with 12 samples.

Results

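The jejunum of sham-operated A/J mice was compared with that of sham-operated C57BL/6J mice (B6; labelled BL6 and C57BL6J), which asks how the 2 inbred strains differ in this tissue before any cholestasis. All arrays titled sham were taken, 6 of the 12 arrays of the series, 3 for each strain. All mice were males of 8 weeks. They were opened under isoflurane, the common bile duct was neither dissected nor tied, and the jejunum was harvested 7 days later for total RNA. The other 6 arrays came from mice of the same strains, sex and age after common bile duct ligation (CBDL), and are used below only to see whether a strain difference was also present there. The tissue was whole jejunum, so fewer cells of a type and less RNA per cell cannot be told apart. The labels do not state that each array came from a separate mouse, so a p-value reflects how far these samples scatter, and that scatter may be technical. All mice had buprenorphine. Brush border genes had a mean log2 value of 11.01 to 11.22 on the 6 sham arrays of this tissue.

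The jejunum absorbs sugars, amino acids and fat through its enterocytes, which form the brush border and carry nutrients, bile acids and drugs across the epithelium. Goblet cells secrete mucus and Paneth cells release α-defensins from the crypt base, while mast cells, intraepithelial lymphocytes and plasma cells patrol the mucosa. A/J and B6 mice differ in the major histocompatibility complex (MHC) haplotype and at many other loci. Array probes were designed on the B6 reference genome, so an A/J sequence variant under a probe and a true difference in transcript level cannot be told apart.

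A difference below is the mean log2 value of the 3 A/J sham arrays minus that of the 3 B6 sham arrays, a negative value being lower in A/J. A probe set or gene was called at an adjusted p under 0.05 in limma. Of 35556 probe sets, 665 were called (1.87%), with 206 higher (0.579%) and 459 lower (1.29%) in A/J. With each array's median subtracted the split was 324 higher and 359 lower, and after quantile normalization it was 304 higher and 407 lower. Taking for each of 19938 named genes its brightest probe set, 353 genes were called (1.77%), 160 higher (0.802%) and 193 lower (0.968%). Which direction led by gene depended on the scaling: subtracting array medians gave 255 higher and 132 lower, and quantile normalization gave 240 higher and 160 lower. Among these, 45 genes were more than 2-fold higher and 69 more than 2-fold lower. The median difference over all genes was 0.04. The probe set count depended on single arrays, and was 346 without A/J replicate 2, 1324 without A/J replicate 3 and 375 without B6 replicate 3.

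**Figure D1:**
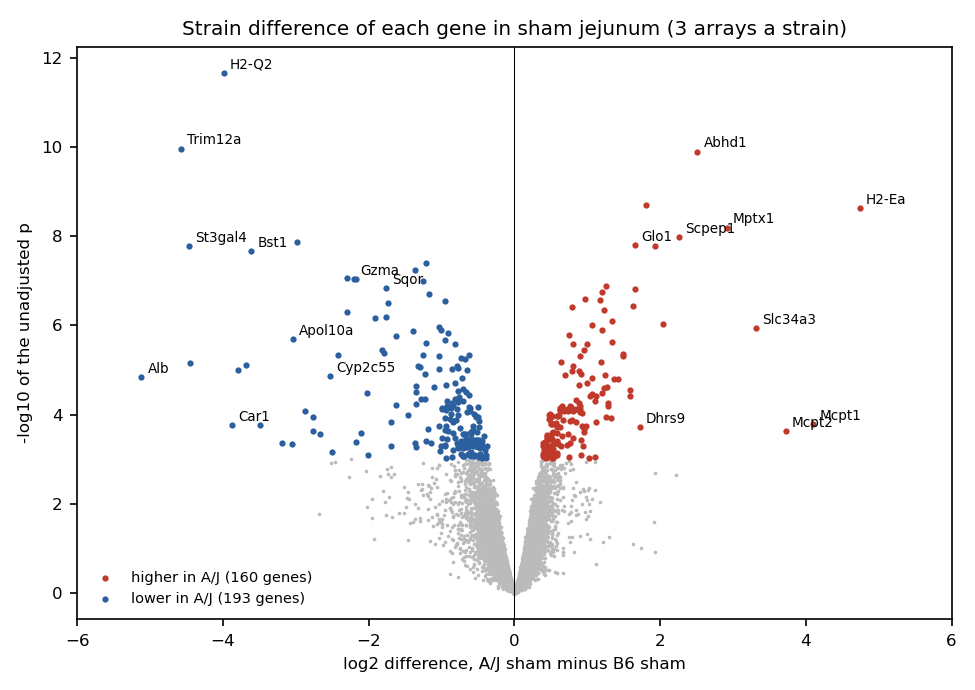
Each point is a gene, with the log2 difference (A/J sham minus B6 sham, 3 arrays each) on the x axis and the -log10 of the unadjusted limma p on the y axis; red and blue points are the 160 higher and 193 lower genes. H2-Ea lies farthest to the right at 4.74 and Alb farthest to the left at -5.12.

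Part of the count was repeated measurement. The 665 called probe sets held 606 distinct sets of values, since some probe sets carry identical values on all 12 arrays. The largest such group was 50 probe sets with no gene name, all lower in A/J. They read 3.27, 4.17 and 4.35 on the A/J sham arrays and 6.03, 6.77 and 6.97 on the B6 sham arrays, a difference of -2.66 (adjusted p = 0.00582). In CBDL mice their difference was -3.04 (adjusted p = 0.00275). Counted once each and fitted again, a choice made after seeing the data, the probe sets gave 567 calls.

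The strain labels were checked with genes known to differ between these strains. H2-Ea encodes the α chain of the MHC class II E molecule, which B6 mice lack. Its log2 values were 8.84, 9.17 and 9.85 on the A/J arrays and 4.69, 4.72 and 4.22 on the B6 arrays, so every A/J array was higher by far. The difference of 4.74 (SE 0.27, 26.7-fold, adjusted p = 1.02e-05) was the largest in that direction. Nnt, the mitochondrial transhydrogenase that carries a deletion in C57BL/6J, read 8.78, 8.95 and 9.05 in A/J and 7.82, 7.57 and 7.84 in B6, 2.27-fold apart (adjusted p = 0.000278). Glo1, which clears methylglyoxal and lies in a segment duplicated in A/J, read 10.61, 10.65 and 10.65 in A/J and 8.99, 8.92 and 9.04 in B6. Its strain groups were 3.15-fold apart (adjusted p = 4.03e-05). The other genes of this check did not pass the test. Dysf, disrupted by a retrotransposon in A/J, differed by -0.35 (adjusted p = 0.125), Pla2g2a by -0.16 (adjusted p = 0.792) and Hc, complement C5, by -0.79 (adjusted p = 0.39).

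Antigen-presentation genes differed gene by gene and not as a block. Of 18 measured MHC class II and antigen-processing genes, 2 were higher and 16 did not pass, and the list's median was 0.05. Beside H2-Ea, the called member was Tap2, a chain of the peptide transporter that loads class I molecules, with a difference of 0.88 (adjusted p = 0.00309). Of 9 class I genes measured singly, 1 was higher, 1 lower and 7 did not pass. H2-Q2, a non-classical class I gene, read 7.64, 7.45 and 7.47 in A/J and 11.58, 11.53 and 11.41 in B6. The arrays of each strain lay within a narrow range, and the 15.9-fold lower A/J level had the smallest adjusted p of the genes named here (7.84e-08). H2-T10 lay on the other side at 1.20 (adjusted p = 0.00582) by the probe set that carries its name alone. A probe set given to H2-T9, H2-T22 and H2-T10 together was lower (-1.46, adjusted p = 0.000481). So was the probe set of H2-T23 and H2-T-ps (-1.73, adjusted p = 0.00313). Of those given to both H2-K1 and H2-D1, one was lower (-0.47, adjusted p = 0.0174) and another did not pass (0.09, adjusted p = 0.735). The remaining probe sets with several class I names did not pass. Class I genes are close copies, so which of them a probe set measures is uncertain.

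**Figure D2:**
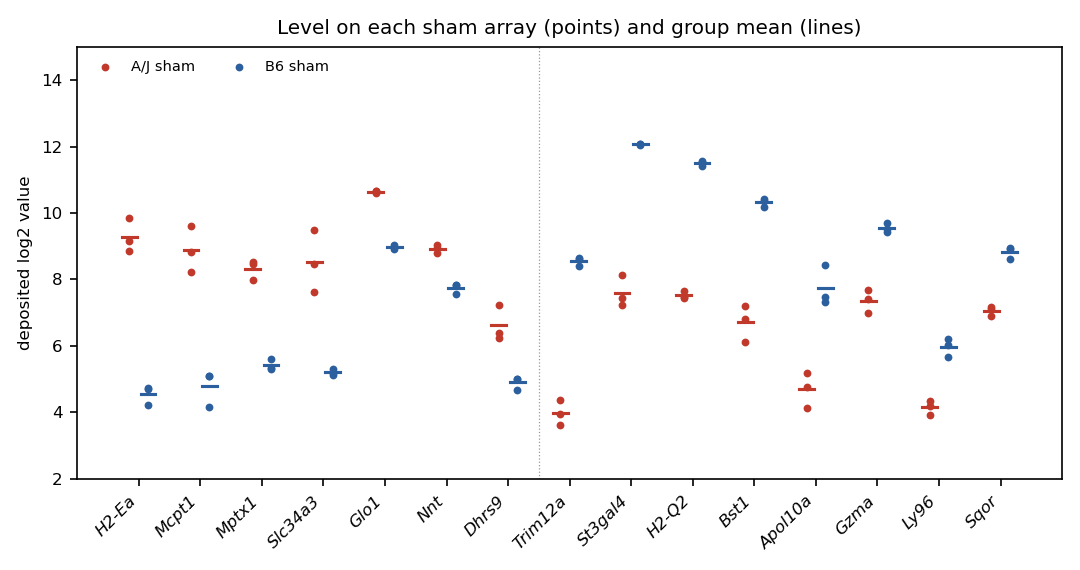
Deposited log2 values (y axis) of 15 genes (x axis) on the 3 A/J sham arrays (red) and 3 B6 sham arrays (blue), with a line at each group's mean. The 7 genes left of the dotted line were higher in A/J and the 8 to its right lower. In none of them do the strains' arrays overlap, which held for all 665 called probe sets.

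Among antiviral and interferon-type genes the calls were few in each list. Trim12a, a relative of the retroviral restriction factor TRIM5, read 3.93, 3.6 and 4.38 in A/J and 8.62, 8.4 and 8.64 in B6. The A/J arrays were lower throughout (difference -4.58, SE 0.20, adjusted p = 9.14e-07). A probe set given to Trim5, Trim12c and Trim12a together had a smaller difference, -1.40 (adjusted p = 0.00582), and another given to Trim5 and Trim12c did not pass (-0.50, adjusted p = 0.317). Within the Trim5 and Trim30 cluster, 3 of 8 measured genes were lower and 5 did not pass. Trim30d differed by -2.42 (adjusted p = 0.00179) and Trim30a by -0.86 (adjusted p = 0.0492). The Trim30a call was lost with each array's median subtracted, and without any 1 sham array other than A/J replicate 3 (adjusted p 0.0784 to 0.151). Probe sets that the platform table gives to several Gvin-type genes, giant interferon-inducible GTPases, were lower as well. There were 2 of these, picked out after their values were seen, and they differed by -3.17 and -3.43.

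In the apolipoprotein L family, intracellular relatives of a serum lipoprotein component, 2 of 6 genes were lower. Apol10a read 4.13, 5.18 and 4.77 in A/J and 7.31, 7.46 and 8.42 in B6, a difference of -3.04 (adjusted p = 0.000952). Apol7c read 4.67, 4.7 and 4.63 in A/J and 6.92, 6.89 and 7.09 in B6, a difference of -2.30 (adjusted p = 0.000424). The strains did not overlap in either gene, which held for all 665 called probe sets and for 19.8% of all genes. Probe sets given to both Apol7e and Apol7b were lower too (-0.82 and -0.71, adjusted p = 0.0106 and 0.0319), while those given to Apol9a and Apol9b did not pass.

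The Ifi200 family of DNA-binding proteins was split, with 1 of 8 genes higher, 2 lower and 5 not passing. Aim2, which senses cytosolic DNA and starts an inflammasome, read 6.08, 6.51 and 6.83 in A/J and 4.83, 5.02 and 5.09 in B6, 2.82-fold higher (adjusted p = 0.0018). Ifi209 was lower by 2.05-fold (adjusted p = 0.000659) and Ifi206 by 1.62-fold (adjusted p = 0.0225). Both read low in both strains, Ifi209 at 3.00 to 4.11 and Ifi206 at 3.40 to 4.28 on the sham arrays. The medians of the arrays were 5.36 to 5.51. Ifi206 was not called without A/J replicate 1 or 2 or B6 replicate 1 or 2 (adjusted p 0.0646 to 0.0852). A probe set given to both Ifi211 and Ifi204, which read 3.15 to 4.57 on the sham arrays, was lower as well (-1.13, adjusted p = 0.0103). It lost the call without A/J replicate 2 (0.0542) or B6 replicate 3 (0.0534). Among 26 interferon-stimulated genes only Oas1a, an activator of antiviral RNA cleavage, passed. It was 2.03-fold higher in A/J, just inside the threshold (adjusted p = 0.0495), and lost the call without any 1 sham array other than B6 replicate 3 (adjusted p 0.0638 to 0.171). Ifi44l, outside that list, was 2.80-fold higher (adjusted p = 0.00175). None of 9 interferon-inducible GTPases of the Gbp and Irg families passed. Nor did any of the 17 measured genes of the inflammasome list, which does not hold Aim2. Ly96, the partner that the endotoxin receptor needs to bind its ligand, was the called gene of 15 Toll-like and NOD receptor genes, 3.52-fold lower in A/J (adjusted p = 0.0015).

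The sequences upstream of 5 of these genes, Trim12a, Trim30a, Trim30d, Apol7c and Oas1a, were searched for an interferon-type motif. The genes were chosen after their values were seen. The 4 sequences shown are those that hold a match, and Trim12a, which had the largest difference of the 5, holds none in its window. They are the 250 bases before the start site in the B6 reference (RefSeq, GRCm38.p6), and A/J sequence was not used here. Capitals mark matches to the core of the interferon-stimulated response element, a pair of GAAA with any 2 bases between them or, on the other strand, a pair of TTTC. Overlapping matches are run together. The positions are chr7:104465194-104465443 for Trim30a (the start site of 2 that holds a match), chr7:104507850-104508099 for Trim30d, chr15:77533316-77533565 for Apol7c and chr5:120907526-120907775 for Oas1a, all on the minus strand.
Trim30a: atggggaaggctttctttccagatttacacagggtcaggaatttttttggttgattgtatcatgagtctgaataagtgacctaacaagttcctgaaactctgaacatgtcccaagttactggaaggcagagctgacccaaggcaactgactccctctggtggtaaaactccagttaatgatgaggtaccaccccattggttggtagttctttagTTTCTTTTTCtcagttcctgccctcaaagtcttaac
Trim30d: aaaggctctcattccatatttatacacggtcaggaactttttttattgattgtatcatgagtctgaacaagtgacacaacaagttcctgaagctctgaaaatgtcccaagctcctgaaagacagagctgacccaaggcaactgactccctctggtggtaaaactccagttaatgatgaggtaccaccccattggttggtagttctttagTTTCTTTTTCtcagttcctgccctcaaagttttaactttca
Apol7c: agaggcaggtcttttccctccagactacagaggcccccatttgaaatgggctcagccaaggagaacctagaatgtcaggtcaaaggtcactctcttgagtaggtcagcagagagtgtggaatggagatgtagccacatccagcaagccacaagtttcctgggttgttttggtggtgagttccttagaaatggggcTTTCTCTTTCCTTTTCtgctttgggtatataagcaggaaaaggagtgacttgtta
Oas1a: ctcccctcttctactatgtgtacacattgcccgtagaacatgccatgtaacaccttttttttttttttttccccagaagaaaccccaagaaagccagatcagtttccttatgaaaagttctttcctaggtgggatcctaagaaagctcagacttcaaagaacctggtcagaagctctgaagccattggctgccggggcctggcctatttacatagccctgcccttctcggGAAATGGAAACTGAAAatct
The Trim30a and Trim30d stretches share 118 identical bases in a row, the match included. Of the 32851 promoters in the reference table, 2.98% hold the motif in the same window. Among called genes with a promoter in the table, 15 of 262 (5.73%) held it, against 3.4% of all measured genes with one. Of the 5 genes searched, Oas1a was higher in A/J and the others lower, Trim12a without a match included.

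Paneth and goblet cell genes differed in a few members. Of 8 Paneth cell genes measured singly, 1 was higher, 2 lower and 5 did not pass. Mptx1, a mucosal pentraxin, read 8.52, 8.46 and 7.97 in A/J and 5.3, 5.59 and 5.34 in B6, a difference of 2.91 (adjusted p = 2.28e-05). Defa39, an α-defensin, read 9.88, 9.17 and 9.46 in A/J and 11.59, 11.91 and 11.57 in B6, 4.55-fold lower (adjusted p = 0.000136). Defa24 was 2.31-fold lower (adjusted p = 0.00114). Since α-defensins are close copies and most of their probe sets carry several names, which member differed is uncertain. Lysozyme Lyz1 (-0.30, adjusted p = 0.372) and the α-defensin processing protease Mmp7 (-0.23, adjusted p = 0.702), chosen after their values were seen, did not pass. Among 15 goblet cell and mucus genes, the transmembrane mucin Muc4 was 2.52-fold lower (adjusted p = 0.0026) and Agr2, a disulfide isomerase needed for mucin folding, 1.80-fold lower (adjusted p = 0.0213). Agr2 was not called without A/J replicate 2, B6 replicate 1 or B6 replicate 3 (adjusted p 0.0573 to 0.101). Defb26, a β-defensin, was 4.11-fold higher (adjusted p = 0.000611).

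The largest single difference in glycosylation was St3gal4, which adds sialic acid to galactose. It read 7.44, 8.14 and 7.22 in A/J and 12.04, 12.09 and 12.09 in B6, so that the A/J arrays were 22.2-fold lower (difference -4.47, SE 0.31, adjusted p = 4.03e-05). Of the other 31 measured mucosal glycosyltransferases, Galnt2 (0.53) and St3gal6 (0.51) were higher by less than 2-fold and the rest did not pass. Both lost the call without A/J replicate 2 (adjusted p = 0.136 and 0.132) and without any 1 B6 array. Bst1, a surface ADP-ribosyl cyclase, read 6.11, 6.81 and 7.19 in A/J and 10.37, 10.17 and 10.41 in B6, 12.2-fold lower (adjusted p = 4.76e-05). Mcoln3, an endolysosomal cation channel, was 7.93-fold lower (adjusted p = 3.93e-05). Prom1, a stem cell surface protein, was the called member of 14 stem cell and Wnt genes. It read 6.84 to 7.37 on the B6 arrays and no higher than 6.19 on the A/J arrays, and was lower in A/J (adjusted p = 0.00895, or 0.0504 without A/J replicate 2).

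Few absorptive genes were called. None of 20 brush border genes, 20 cholesterol synthesis genes or 10 genes of the proximal small intestine was called, and their medians lay between -0.02 and 0.09. Of 19 sugar, peptide and amino acid transporters, the fructose transporter Slc2a5 was higher, by 1.53-fold (adjusted p = 0.0113). Its adjusted p was 0.0502 without A/J replicate 2 and 0.0507 without B6 replicate 1. Of 18 lipid uptake genes, Scarb1, the scavenger receptor for high-density lipoprotein, was 2.43-fold higher (adjusted p = 0.00842). Slc34a3, a sodium-phosphate cotransporter, read 7.61, 9.49 and 8.45 in A/J and 5.13, 5.29 and 5.19 in B6. That was 9.94-fold higher in A/J, where the arrays were also more spread (adjusted p = 0.000689).

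Water and ion handling differed in 4 of 22 genes. Guca2a, the prohormone of guanylin, which drives chloride and fluid secretion, was 2.67-fold higher (adjusted p = 0.00378), and the water channel Aqp8 was 2.40-fold higher (adjusted p = 0.00525). The membrane carbonic anhydrase Car4 was higher by 2.15-fold (adjusted p = 0.0495), while the cytosolic Car1 was lower. Car1 read 4.5, 4.7 and 4.03 in A/J and 7.94, 10.28 and 6.65 in B6, where its arrays differed widely (difference -3.88, SE 0.70, adjusted p = 0.0159). Without A/J replicate 2 its adjusted p was 0.0542. Car4 lost the call without A/J replicate 2 or 3 or any 1 B6 sham array (adjusted p 0.066 to 0.187). It was also lost without A/J CBDL replicate 3 or any 1 B6 CBDL array, which enter only through the shared estimate of spread.

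Genes of bile acid and drug handling were split. Abcc3, which exports conjugated bile acids and glucuronides across the basolateral membrane, read 10.02, 9.96 and 9.82 in A/J and 8.48, 8.0 and 8.45 in B6, 3.09-fold higher (adjusted p = 0.000342). Abcc2, the apical exporter of conjugates, was 1.88-fold lower (adjusted p = 0.0203). The other 14 genes of bile acid and xenobiotic sensing and transport did not pass. Of 32 cytochrome P450 enzymes, 3 were higher and 3 lower. Cyp2c55 read 6.9, 6.42 and 6.85 in A/J and 9.81, 8.33 and 9.63 in B6, 5.79-fold lower (adjusted p = 0.00354). Cyp2c29 (-2.67, adjusted p = 0.022) and Cyp3a13 (-1.02, adjusted p = 0.0396) were lower, and Cyp2u1 was higher (0.90, adjusted p = 0.00918). Cyp2j9 and Cyp2s1 were the other called members, both higher. Of 40 conjugating and hydrolysing enzymes, Sult1a1 was 1.48-fold lower and 39 did not pass. Abcc2, Cyp2c29 and Cyp3a13 each lost the call without A/J replicate 1 or 2 or B6 replicate 1 or 3 (adjusted p 0.0523 to 0.142), and Cyp2u1 without A/J replicate 2 (0.0509). Sult1a1 lost it without any 1 sham array other than A/J replicate 2 (0.0638 to 0.141). With each array's median subtracted, Cyp3a13 and Sult1a1 were not called.

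Enzymes of retinoid and alcohol metabolism, for which no list was drawn up, were called in both directions. Adh6a, an alcohol dehydrogenase, was 4.04-fold lower in A/J (adjusted p = 0.00582). Rdh16, a retinol dehydrogenase, was 3.01-fold higher (adjusted p = 0.00581). Dhrs9, another dehydrogenase of this group, was 3.29-fold higher (adjusted p = 0.0174), and Adh4, an alcohol dehydrogenase that also uses retinol, 3.00-fold higher (adjusted p = 0.00582). Rbp2, the retinol carrier of enterocytes, was the called member of 15 vitamin and calcium uptake genes, by 1.37-fold (adjusted p = 0.0352). Dhrs9 was not called without A/J replicate 2 or B6 replicate 2 or 3 (adjusted p 0.0567 to 0.0672), nor Rbp2 without any 1 sham array other than A/J replicate 1 (0.0625 to 0.14). Scpep1, a serine carboxypeptidase, was 4.78-fold higher (adjusted p = 3.33e-05), and Abhd1, an α/β-hydrolase, 5.68-fold higher (adjusted p = 9.14e-07). Sqor, which oxidises hydrogen sulfide in mitochondria, read 7.1, 6.9 and 7.16 in A/J and 8.96, 8.6 and 8.92 in B6, 3.42-fold lower (adjusted p = 0.000183).

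Of 10 mucosal mast cell genes, 2 proteases were higher in A/J. Mcpt1, a chymase of mucosal mast cells, read 9.61, 8.81 and 8.23 in A/J and 5.1, 4.15 and 5.09 in B6, 17.2-fold higher (difference 4.10, SE 0.73, adjusted p = 0.0152). Mcpt2 read 8.65, 7.34 and 6.87 in A/J and 4.15, 3.82 and 3.76 in B6, 13.1-fold higher (adjusted p = 0.0201). The 8 other mast cell genes did not pass. Among those, Cpa3 (1.02, adjusted p = 0.12) and Mcpt4 (0.77, adjusted p = 0.0601) had positive differences, and the list's mean was 4.86 to 5.49 on the A/J arrays and 3.99 to 4.06 on the B6 arrays. Mcpt1 was not called without A/J replicate 1 or 2 or B6 replicate 2 (adjusted p 0.0581 to 0.0629), nor Mcpt2 without any 1 sham array other than A/J replicate 3 (0.0548 to 0.0784).

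Of 30 T, NK and intraepithelial lymphocyte genes, 4 were lower in A/J, none was higher, and the list's median was -0.01. Gzma, a granule protease of cytotoxic cells, read 7.41, 6.99 and 7.68 in A/J and 9.44, 9.53 and 9.71 in B6, 4.58-fold lower (adjusted p = 0.000136). Klrd1, a chain of NK cell lectin receptors, was 2.34-fold lower (adjusted p = 0.00638), Gzmb 1.91-fold lower (adjusted p = 0.0265) and the chemokine Ccl5 1.61-fold lower (adjusted p = 0.0466). Klra2, an NK receptor of the Ly49 family, was 1.95-fold lower (adjusted p = 0.0123), with readings of only 3.16 to 4.45 on the sham arrays. The other 18 measured genes of its lectin-like receptor list, which does not hold Klrd1, did not pass. Without A/J replicate 2 none of Gzmb, Ccl5 and Klra2 was called (adjusted p = 0.114, 0.172 and 0.0575), nor without B6 replicate 3 (0.0584, 0.172 and 0.0509). Gzmb and Ccl5 also lost the call without A/J replicate 1 or B6 replicate 1, Ccl5 without B6 replicate 2, and Ccl5 with each array's median subtracted. No macrophage, neutrophil or eosinophil gene of 21 was called, nor any of the 26 measured genes of the chemokine list, which does not hold Ccl5.

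No B cell or plasma cell gene of 17 passed. However, 5 probe sets that the platform table gives to several immunoglobulin κ variable segments (mostly Igkv4) were higher in A/J, by 1.74 to 1.91 (adjusted p 0.00399 to 0.0153). They were picked out after their values were seen. Of these, 2 lost the call without A/J replicate 2, B6 replicate 2 or B6 replicate 3 (0.0532 to 0.0733), and with the hepatocyte enzyme mean as a covariate none of the 5 was called (0.0806 to 0.227). That loss was not particular to them. The covariate ended 58 of the 107 calls of named probe sets, Mcpt1 (adjusted p = 0.174), Mcpt2 (0.241), Klrd1 (0.11) and Tek (0.109) included. In CBDL mice the 5 immunoglobulin probe sets were higher by 2.53 to 2.88. Among enteroendocrine genes, 2 of 19 were higher in A/J: Ffar1, which senses medium- and long-chain fatty acids (0.79, adjusted p = 0.000345), and the incretin hormone Gip (0.49, adjusted p = 0.0475). Gip was not called without any 1 sham array other than A/J replicate 3 (0.0606 to 0.179). Tek, the angiopoietin receptor of endothelium, was 2.11-fold higher (adjusted p = 0.00582), alone of 10 endothelial genes.

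Plasma protein genes, which hepatocytes transcribe at high levels, had more calls on the low side than any other list. Alb, serum albumin, read 5.47, 5.31 and 8.44 in A/J and 10.69, 11.61 and 12.28 in B6. Every B6 array lay above every A/J array, while A/J replicate 3 lay well above the other A/J arrays. The difference was -5.12 (SE 0.69, 34.7-fold, adjusted p = 0.00357). Of 26 plasma protein genes, 9 were lower, none was higher and 17 did not pass. All 26 had a lower mean in A/J, and in 20 the strains' arrays did not overlap, against 19.8% of all genes. The list's median difference was -1.58. The count of 9 was 5 without A/J replicate 1, 4 without A/J replicate 2, 15 without B6 replicate 1, 5 without B6 replicate 2 and 6 without B6 replicate 3. Fgb and Fgg, chains of fibrinogen, differed by -3.80 and -3.68 (adjusted p = 0.00291 and 0.0026), and Ahsg, fetuin-A, by -3.49 (adjusted p = 0.0159). Transthyretin (Ttr), haemopexin (Hpx) and kininogen (Kng1) differed by -2.77, -2.76 and -2.50. Each of Ahsg, Ttr, Hpx and Kng1 lost the call without A/J replicate 2 (adjusted p 0.0598 to 0.126), and all of them without at least 1 other sham array. Pzp, an α-macroglobulin outside the list, differed by -2.88 (adjusted p = 0.00969).

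Major urinary proteins (Mup), lipocalins that carry pheromones, showed the largest differences of all. The platform table leaves most of these probe sets unnamed, and the names used here are those of the study's own list. Since the Mup genes are near-identical copies, a probe set cannot be tied to one of them. The 9 probe sets listed as Mup1, Mup2, Mup7 or Mup11 were all lower in A/J, with differences of -6.92 to -6.25 (adjusted p 0.00316 to 0.00385). The Mup7 probe set read 2.99, 3.57 and 7.02 in A/J and 9.95, 11.64 and 12.76 in B6, with A/J replicate 3 again above its fellows. Mup20 read 2.86, 2.82 and 3.44 in A/J and 5.49, 9.73 and 10.73 in B6, a difference of -5.61 (adjusted p = 0.0141). It was not called without A/J replicate 2 (0.0646) or B6 replicate 2 (0.0589), and its difference was -4.57 without B6 replicate 3 (0.0433). Mup3 differed by -3.19 (adjusted p = 0.0309) and was not called without A/J replicate 1 or 2 or B6 replicate 2 (0.0764 to 0.108). With only the 6 sham arrays in the fit Mup3 was not called either. Mup4 differed by -0.82 (adjusted p = 0.0141), or by -0.68 without B6 replicate 3 (adjusted p = 0.0537). It read only 2.90 to 4.27 on the sham arrays. Mup5 (-0.40) and Mup21 (-1.01) did not pass.

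The α1-antitrypsin genes (Serpina1), which encode inhibitors of serine proteases and are likewise close copies, had negative differences in 5 probe sets. Serpina1c read 4.42, 4.91 and 5.53 in A/J and 8.07, 9.31 and 10.86 in B6, 21.9-fold lower (adjusted p = 0.00234). The probe sets listed as Serpina1a, Serpina1e and Serpina1b differed by -3.85, -3.68 and -2.97, and Serpina1d (-1.80, adjusted p = 0.127) and Serpina1f (0.02, adjusted p = 0.968) did not pass. Lcn2, lipocalin-2 (-0.07, adjusted p = 0.954), and St14, the protease matriptase (0.07, adjusted p = 0.747), did not pass either.

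Markers of hepatocytes themselves varied together with these genes on some arrays and not on others. The mean of 33 hepatocyte enzyme and transporter genes was 4.76, 4.66 and 4.72 on the A/J sham arrays and 4.83, 5.33 and 6.57 on B6 replicates 1, 2 and 3. The plasma protein mean was 4.97, 5.04 and 5.34 in A/J and 6.09, 6.99 and 8.21 in B6, so B6 replicate 3 was highest for both lists. B6 replicate 1 had Alb at 10.69 with an enzyme mean close to those of A/J. A/J replicate 3 had the highest values of its group for Alb, Mup20 and the 9 Mup probe sets above. Mup3 (5.49) and Mup4 (2.90) were lowest there. Its enzyme mean lay between those of the other A/J arrays, and all 3 of these means were below the array medians of 5.36 to 5.51. Of the 33 enzyme genes only Cyp2e1, an ethanol-oxidising P450, was called (-3.06, adjusted p = 0.0318). Its call was lost without any 1 A/J array or B6 replicate 2 (0.0511 to 0.106), and with only the 6 sham arrays in the fit. Without B6 replicate 1, 8 of the enzyme genes were called. The arrays of the strains did not overlap in 17 of the 33, against 19.8% of all genes. Slc10a1, the hepatocyte bile acid importer, read 4.03, 4.44 and 4.2 in A/J and 5.06, 5.48 and 7.06 in B6 (adjusted p = 0.0808), while Cyp7a1, the first enzyme of bile acid synthesis, differed by -0.32 (adjusted p = 0.678). Without B6 replicate 3, 6 plasma protein genes and 3 enzyme genes were called, and Alb (-4.74, adjusted p = 0.0208), Serpina1c (-3.73, adjusted p = 0.00265) and all 9 Mup probe sets (-6.27 to -5.43) stayed called. With the enzyme mean as a covariate, Alb had a difference of -4.34 (adjusted p = 0.0721), and the 9 Mup probe sets had differences of -5.89 to -5.01 but were not called (adjusted p 0.0565 to 0.0779). Under the same covariate Serpina1c (-3.13, adjusted p = 0.00326), Fgb (-2.74, adjusted p = 0.0129), Fgg (-2.67, adjusted p = 0.0112), Ahsg (-1.93, adjusted p = 0.0141) and Pzp (-1.71, adjusted p = 0.00854) were called, while Ttr, Hpx and Kng1 were not (0.109 to 0.112). The part of hepatocyte RNA in these differences was not tested. Pancreatic genes had means of 4.41 to 4.67 on all 6 arrays.

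**Figure D3:**
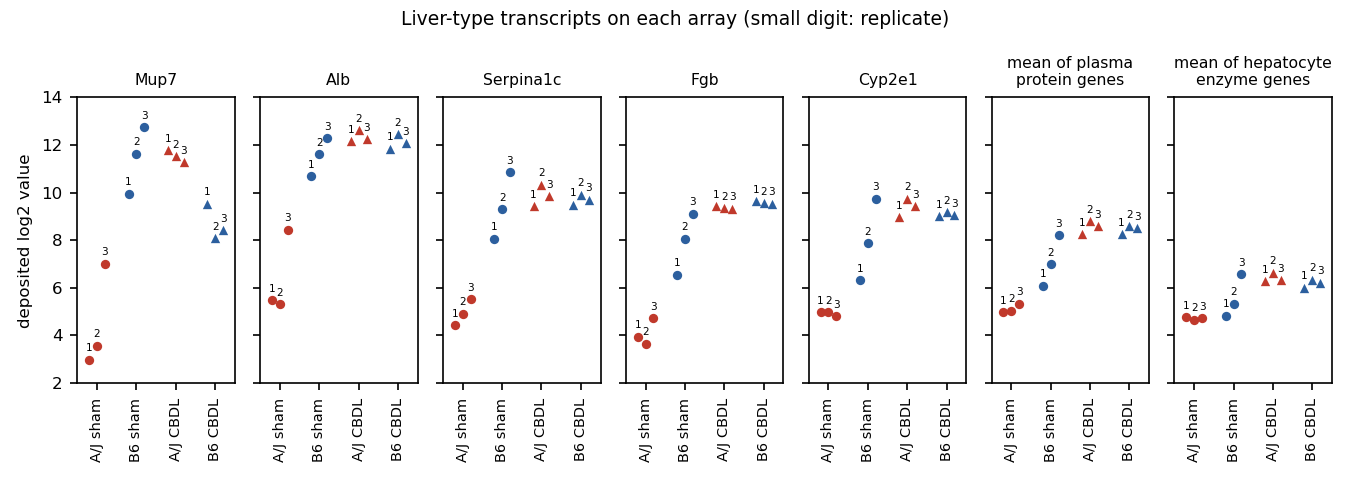
Deposited log2 values (y axis) of 5 liver-type genes and the means of 26 plasma protein and 33 hepatocyte enzyme genes on each array, by group (x axis; circles sham, triangles CBDL, red A/J, blue B6, digit the replicate number). The 3 A/J sham arrays are lowest for both list means, and all CBDL arrays are above the highest B6 sham array for the plasma protein mean.

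A few called genes lay next to each other in the genome. For this count a gene was called if any of its probe sets with 1 gene name was, which held for 373 of 19916 genes with a place. In RefSeq order, 5 runs held at least 3 called genes with no more than 2 uncalled measured genes between neighbours, 16 genes in all. Whether so many runs would arise from scattered calls was not tested. The run on chromosome 17 held Btbd9, Glo1 and Dnah8, all higher in A/J (0.59, 1.66 by the other Glo1 probe set, and 0.96). On chromosome 7 the Trim12a, Trim30a, Trim30d and Trim30e-ps1 run was lower throughout, though Trim30e-ps1 read only 2.89 to 3.78 on the sham arrays. In the alcohol dehydrogenase run on chromosome 3 the direction changed from gene to gene. Adh6a was lower, reading 10.55, 10.21 and 10.74 in A/J and 12.54, 12.43 and 12.58 in B6, beside Adh4 and Adh1 (0.44), which were higher. The chromosome 1 run, Aim2 with Ifi206 and Ifi209, was mixed too. On chromosome 9 Slc22a13, Slc22a13b and the peroxisomal thiolase Acaa1a were all higher (0.58, 1.33 and 0.39). Of these run genes, Btbd9, Dnah8, Adh1, Trim30e-ps1 and the chromosome 9 genes each lost the call without B6 replicate 3 (adjusted p 0.0567 to 0.143). Close copies such as the Trim30, Ifi200 and Adh genes may share probes. Counted in the same way, the X chromosome had 2 called genes of 742 (0.27%), the lowest share of any chromosome with over 9 measured genes. Chromosome 1 had the highest at 2.75%.

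The lists together held 830 measured genes, of which 64 (7.71%) were called, 27 higher and 37 lower. They were drawn up with earlier results of these data known, so this share is not a result about the lists. No gene was called in 23 of 52 lists, among them cell cycle, tuft cell, complement, clock, glucocorticoid-induced, metallothionein, iron, adipocyte, smooth muscle, fibroblast, and neuron and glia genes. The smooth muscle mean was 6.69 on A/J replicate 1 and 7.83 to 8.52 on the other sham arrays. Its average correlation with the other 11 arrays, 0.970, was the lowest as well.

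**Figure D4:**
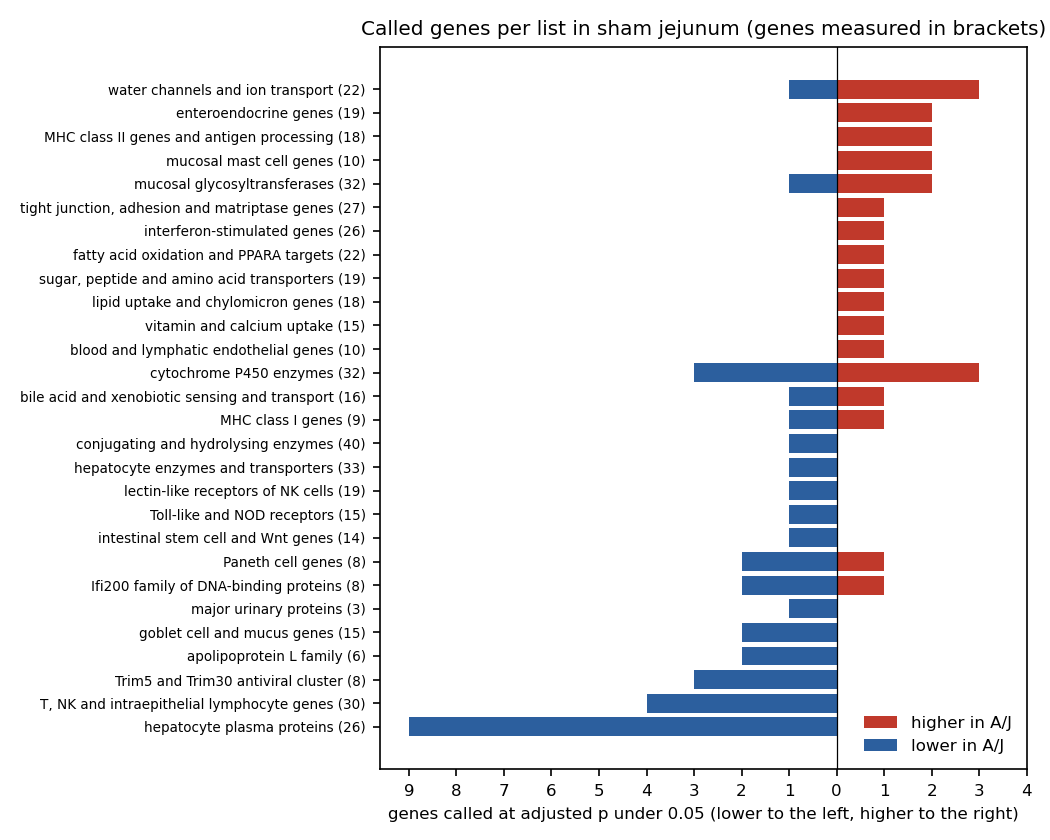
Number of genes called in each list (bars; lower in A/J to the left, higher to the right), for the lists with at least 1 call except the strain check genes, genes measured in brackets. The 26 plasma protein genes gave 9 calls to the left, and the P450 list split 3 and 3.

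The CBDL mice gave a second comparison of the strains on arrays whose means the sham comparison did not use, though both share 1 estimate of the spread. There 634 probe sets were called (1.78%), 200 higher (0.562%) and 434 lower (1.22%) in A/J, and 323 were called in both comparisons. Of the 353 genes called in sham mice, 171 were also called in CBDL mice in the same direction, against 1.92% of all genes called there. The sign was the same for 324 of the 353, against 63.2% of all probe sets. Trim12a (-4.74), St3gal4 (-4.48), H2-Q2 (-3.67), H2-Ea (4.56), Mptx1 (3.27) and Abhd1 (2.15) had CBDL differences close to those in sham mice. Trim30d (-3.81) and the Gvin-type probe sets (-4.64 and -4.48) had larger ones. Liver-type genes had small ones. Alb differed by 0.21, Serpina1c by 0.17, Fgb by -0.21 and Cyp2e1 by 0.30 in CBDL mice, and none of these was called. Cyp2c55 (-0.02) and Car1 (0.69) were not called there either. Mcpt1 (3.26, adjusted p = 0.0531) and Mcpt2 (2.65, adjusted p = 0.0929) were above 0 but did not pass.

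**Figure D5:**
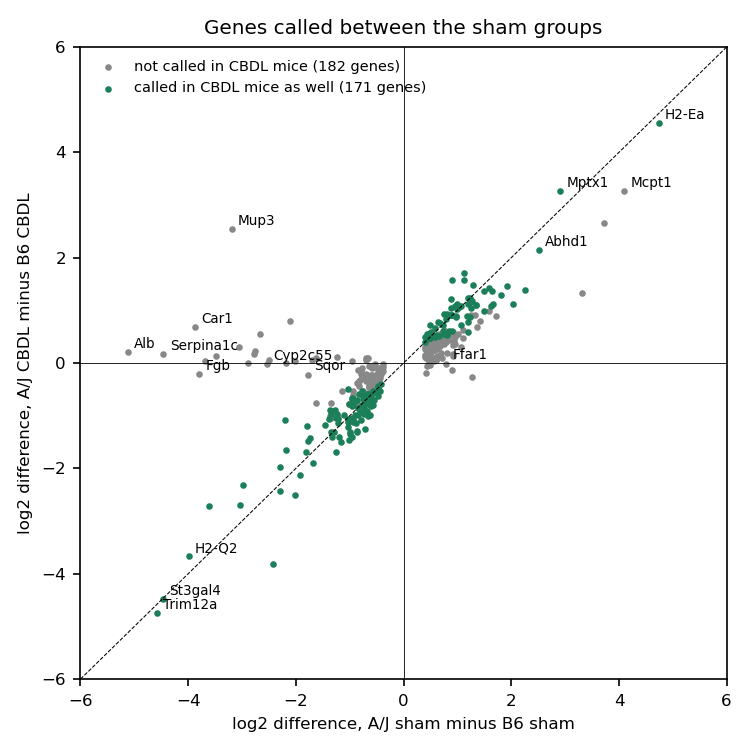
The 353 genes called between the sham groups, with their log2 difference (A/J minus B6) in sham mice on the x axis and in CBDL mice on the y axis; green marks the 171 genes called in CBDL mice too, and the dashed line is equality. Trim12a, St3gal4, H2-Q2 and H2-Ea lie near the dashed line, whereas Alb, Serpina1c and Fgb lie near 0 on the y axis.

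The difference between the 2 strain differences was tested by the strain-by-operation interaction, which was called for 13 of 35556 probe sets (0.0366%). Sqor was one of them. It read 9.07, 9.2 and 8.84 in A/J CBDL and 8.98, 9.37 and 9.41 in B6 CBDL mice, so the sham difference of -1.77 was -0.22 after ligation (interaction -1.56, SE 0.21, adjusted p = 0.0476). Ffar1 read 5.21, 5.19 and 5.28 in A/J sham mice and 4.40 to 4.68 on all other arrays (interaction 0.79, SE 0.10, adjusted p = 0.0476). The 9 Mup probe sets above were called as well, with CBDL differences of 2.66 to 2.99 that did not pass on their own. Mup4, which read only 2.90 to 4.49 on all arrays, was called in both comparisons in opposite directions, -0.82 in sham and 1.01 in CBDL mice. The 13th was a probe set that the platform table leaves unnamed and the study's own list names Srd5a2, a steroid 5 alpha-reductase. No interaction was called without A/J sham replicate 1 or 2, B6 sham replicate 3 or any 1 CBDL array, 2 were without B6 sham replicate 2 and 28 without B6 sham replicate 1. For the other genes named above the interaction was not called, so a call in sham mice alone, or a larger difference in one operation, does not show that the strain difference changed.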

How the data were processed

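Total RNA of jejunum was hybridised to 12 Affymetrix arrays, 3 for each strain and operation. The deposited table holds log2 values of 35556 probe sets, made by the authors with RMA in Affymetrix Expression Console per the labels, whereas the methods name GCRMA and another array type than the deposited probe numbering; software versions were not given in the sources used. RMA normalization equalises the distribution of array intensities. Array medians were 5.36 to 5.51. With 3 arrays in each group, it is their number that limits precision.

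Values were used as deposited. limma 3.58.1 (R 4.3.3) was fitted to all 12 arrays with a mean for each group, empirical Bayes moderation and Benjamini-Hochberg adjustment over all probe sets. The fit was tested on simulated data for the sham comparison over 35556 probe sets, where it recovered 76 of 100 2-fold and 93 of 100 4-fold changes with 11 false calls. The changed probe sets all had a mean at or above the median, and noise was drawn separately for each probe set. Effects that many probe sets share on an array were not simulated, so these figures do not cover them. The platform table gave 21789 probe sets 1 gene name, 1621 several and 12146 none. Lists took each gene's brightest probe set.

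Members and lists were chosen with earlier results of these data known. Named were the 20 highest and 20 lowest called genes, up to 4 called genes of each list, the strain check genes, up to 5 interaction calls in each direction, Mup, Serpina1, Lcn2 and St14, and genes in runs; others are marked in the text. Alternatives changed the samples, filter, normalization, prior, array weights, replicate block, hepatocyte covariate and fold, or left out each array in turn.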

Additional observations from a re-analysis of the deposited data

Results flagged for a closer look

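The strain difference itself differed between sham and CBDL mice for 13 probe sets by the interaction term, each at an adjusted p of 0.0476. Every value here is the sham difference minus the CBDL difference on the log2 scale. It was -1.56 for Sqor and 0.79 for Ffar1. The probe sets listed as Mup2 had -9.76, -9.59, -9.34, -9.33, -9.21 and -9.06, Mup7 had -9.76, Mup11 -9.61 and Mup1 -9.24. The Mup4 probe set had -1.83. The probe set listed as Srd5a2, unnamed in the platform table, had 1.71. It was lower in A/J by 0.83 on the log2 scale in sham mice and by 2.54 in CBDL mice (differences -0.83 and -2.54). Groups of 3 arrays were too small to look for single outlying samples.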

How the results depend on the processing

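The sham comparison gave 665 called probe sets. Array weights gave 3044, the 6 sham arrays alone 271, the hepatocyte covariate 160 and a fold above 2 as well 329. Leaving out 1 array gave 346 (without A/J sham replicate 2) to 1324 (without A/J sham replicate 3); without B6 sham replicate 3 it was 375. Between CBDL mice 634 were called, with 1261 under array weights, 256 with the fold and 290 to 687 with 1 array left out. Called in both were 323, with 627 under array weights, 110 with the covariate, 178 with 6 arrays, 178 with the fold and 218 to 334 with 1 array left out. The interaction, 13 calls, gave 23 without the lowest-numbered unnamed probe sets and 1 without empirical Bayes. By limma it gave 0 with only probe sets of 1 gene name, quantile normalization, the trend and robust prior, or the covariate, and 0 to 28 with 1 array left out (28 without B6 sham replicate 1). Over all settings with 0 calls, 1615 to 2701 probe sets had an unadjusted p under 0.05. The replicate block gave 508 sham, 421 CBDL and 0 interaction calls; same-numbered sham arrays had deviations correlated at 0.12, 0.0252 and 0.358, so the numbers were not taken to pair them. The causes were not tested.

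Of 107 named probe sets that were called, 37 kept the call in every alternative and none changed direction. The 6-array fit lost 61 of these calls and the covariate 58. Leaving out 1 CBDL array lost 6 to 12 of them, while the single-array losses given by gene above name sham arrays only, except for Car4. Among 9 not called, Hc turned to 0.24 with the covariate, Lcn2 to 0.00 after quantile normalization or median subtraction and to 0.02 without A/J sham replicate 2, Serpina1f to -0.06 with array weights, -0.07 without A/J sham replicate 1 and -0.03 without B6 sham replicate 1, and St14 to -0.00 without A/J sham replicate 2. With 1 array left out these ranged from -0.17 to 0.02 for Lcn2, -0.07 to 0.11 for Serpina1f and -0.00 to 0.15 for St14. Of 416 list counts under alternatives, 80 moved by over 1.5 times.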
